A study of Homo sapiens with 2 samples.

Results

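The inhibitory receptors examined here were LILRB1, LILRB2, LILRB4, LAIR1, CD72, FCGR2B and CD300A, together with PTPN6, PTPN11 and INPP5D, which encode the phosphatases that such receptors recruit. These 10 genes, of 37122 in the count table, comprise 7 receptors and 3 phosphatases, and all 10 had a row. They were chosen by family membership and on the near absence of LILRB1 reads in Ramos640, so the values of LILRB1 below are a description of that choice and not a test of it. RNA sequencing (RNA-seq) compared Ramos, a B-cell line from a human Burkitt's lymphoma, with its derivative Ramos640, a subline made resistant to complement-dependent cytotoxicity (CDC) by the anti-CD20 antibody rituximab. Ramos640 had been selected with stepwise increased rituximab in the presence of normal human serum (NHS), the source of complement, and was kept resistant by rituximab at 640 mg/mL by the sample labels (μg/mL by the methods) with 20% NHS every 21 days. Both lines were grown in RPMI medium with fetal bovine serum and antibiotics. Each cell line gave 1 library from RNA pooled over 3 passages, so no difference between the lines has a replicate check, and effects of selection, of repeated treatment and of long culture cannot be told apart. The counts summed to 38030090 reads in Ramos and 30871826 in Ramos640.

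These receptors carry immunoreceptor tyrosine-based inhibitory motifs (ITIMs) in their cytoplasmic tail. When the B-cell receptor is engaged, Src family kinases such as Lyn phosphorylate the ITIM tyrosine, and the motif then binds phosphatases with SH2 domains. PTPN6 and PTPN11 are protein tyrosine phosphatases (SHP-1 and SHP-2), and INPP5D (SHIP-1) removes a phosphate from a phosphoinositide that PI3K makes. The leukocyte immunoglobulin-like receptors (LILRs) lie with LAIR1 in a receptor gene cluster on chromosome 19, and the LILRB members with ITIMs are known mainly from myeloid cells, while LILRB1 is found on B cells as well. LILRB1 and LILRB2 bind MHC class I molecules, LAIR1 binds collagens, CD72 binds CD100 (SEMA4D), FCGR2B is the inhibitory receptor for IgG, and CD300A binds lipids of the cell membrane.

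The 250 bases before the transcription start show how close some of the LILR genes are to each other, and they are given for LILRB1, for LILRB2 and LILRA1 from the same cluster, and for CD72 as the most abundant receptor. They were taken from RefSeq (GRCh38.p14), which held a window for 9 of the 10 genes, at chr19:54630234-54630483 on the plus strand for LILRB1, chr19:54281111-54281360 on the minus strand for LILRB2, chr19:54593382-54593631 on the plus strand for LILRA1 and chr9:35618414-35618663 on the minus strand for CD72. All run 5′ to 3′ along the gene, and the capitals mark the 6 letters GGAAGT or their reverse complement, a sequence found in sites of ETS family factors.
LILRB1: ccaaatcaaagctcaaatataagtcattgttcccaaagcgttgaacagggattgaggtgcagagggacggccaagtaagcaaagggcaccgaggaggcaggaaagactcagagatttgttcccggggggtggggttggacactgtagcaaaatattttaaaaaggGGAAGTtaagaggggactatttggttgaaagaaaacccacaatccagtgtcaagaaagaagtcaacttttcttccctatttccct
LILRB2: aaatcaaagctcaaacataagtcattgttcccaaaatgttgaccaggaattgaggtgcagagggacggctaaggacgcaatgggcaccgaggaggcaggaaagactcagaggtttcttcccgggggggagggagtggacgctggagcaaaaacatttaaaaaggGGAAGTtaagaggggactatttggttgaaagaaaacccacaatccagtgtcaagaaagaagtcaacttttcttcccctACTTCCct
LILRA1: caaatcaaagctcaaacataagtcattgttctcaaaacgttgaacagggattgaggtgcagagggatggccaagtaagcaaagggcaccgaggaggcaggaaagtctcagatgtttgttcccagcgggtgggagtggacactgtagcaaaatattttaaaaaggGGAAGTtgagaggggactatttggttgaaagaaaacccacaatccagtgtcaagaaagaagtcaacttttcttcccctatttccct
CD72: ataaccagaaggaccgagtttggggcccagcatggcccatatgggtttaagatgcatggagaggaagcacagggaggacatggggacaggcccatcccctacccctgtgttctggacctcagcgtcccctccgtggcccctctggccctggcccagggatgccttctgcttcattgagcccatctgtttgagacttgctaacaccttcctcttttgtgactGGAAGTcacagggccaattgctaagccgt
The LILRB1 window shown was chosen from those of its annotated starts because it aligned best with a window of another family gene. In a local alignment with it, 228 of 250 aligned positions were identical in LILRB2 (91.2%) and 237 of 250 in LILRA1 (94.8%). These were the closest windows of LILRB2 and LILRA1. The other windows of LILRB2 aligned over 15 and 23 positions only, and that of LILRA1 over 15. The CD72 window aligned over 46 positions only, with 31 identical bases. The 6 letters, searched on both strands, were present in 10 of 17 windows of the members (58.8%), as several genes have more than 1 start and windows of 1 gene can overlap and hold the same site, and in 19.5% of all 35116 windows of this length. The letters were picked after the sequences had been seen, and a match is no evidence of a bound factor. The transcripts of LILR genes are alike as well, so short reads of 1 of them can fit another, and the sources used here do not say to which gene such reads went.

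LILRB1 had 782 reads in Ramos and 1 read in Ramos640. After scaling by the size factors of the libraries, the Ramos value was 600.5-fold higher, with a 95% counting interval from 107.5-fold to 23747-fold, and the log2 fold change with 1 added to each normalized count was -8.32. The gene lies on chromosome 19 of GRCh37 from 55128612 to 55149473 on the plus strand. Scaled to exon length and library total (RPKM), its level was 3.74 in Ramos (counting interval 3.48 to 4.01) and 0.0059 in Ramos640, where 3 reads, the limit that a count of 0 allows, would be 0.018 RPKM. The single Ramos640 read was thus within that limit. As in any bulk library, fewer cells with the transcript and less of it per cell cannot be told apart. The 5 genes with at least 100 reads in Ramos whose log2 fold change over these 2 libraries lay nearest to it were CPXM1 (-7.82), IL7R (-7.71), PRKCB (-7.57), TLL1 (-6.62) and PLCXD3 (-6.55). IL7R, PRKCB and TLL1 had 0 reads in Ramos640, so their values depend on the added count. The antisense gene LILRB1-AS1 is annotated over the end of LILRB1, from 55147173 to 55150343 on the minus strand, and without a stated strand setting any reads of it cannot be told apart from those of LILRB1. Antisense genes are annotated over CD72, FCGR2B and INPP5D as well.

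LILRB2 had 52 reads in Ramos and 9 in Ramos640, so that both libraries held reads but far fewer in Ramos640. This was 4.44-fold lower in Ramos640 (interval 2.17-fold to 10.2-fold). It encodes the other member known to bind MHC class I and lies on chromosome 19 from 54777666 to 54785039 on the minus strand. LILRB4, whose product inhibits monocytes and dendritic cells, had 1 read in Ramos and 0 in Ramos640. LAIR1, the collagen receptor, had 2 and 0 reads. LILRB4 lies on chromosome 19 from 55155340 to 55181810 on the plus strand and LAIR1 from 54862991 to 54882165 on the minus strand. Both were at or under the limit of 3 reads in each library, and no difference was detectable at this depth.

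FCGR2B had 11 reads in Ramos and 0 in Ramos640, which is at least 2.81-fold lower in Ramos640 against a floor of 3 reads in that library. With the counting error of the Ramos reads included, its interval began at 1.93-fold. Its level in Ramos was 0.043 RPKM, far below that of LILRB1. FCGR2C, a nearly identical copy, and FCGR2A had no reads in either library, so no reads were assigned to those relatives. CD300A was the only receptor with more reads in Ramos640, with 0 in Ramos and 8 in Ramos640. Against the floor of 3 reads it was at least 3.47-fold higher in Ramos640 (counting interval from 2.22-fold), but with fewer than 10 reads in all it was not among the genes counted below. FCGR2B lies on chromosome 1 from 161632933 to 161648444 and CD300A on chromosome 17 from 72462538 to 72480933, both on the plus strand.

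CD72, a lectin-like coreceptor that recruits PTPN6 in B cells, was the most abundant of the receptors. Its reads numbered 1456 in Ramos and 843 in Ramos640, or 13.1 and 9.34 RPKM. The Ramos640 value was 0.754 times that of Ramos (interval 0.692 to 0.821), a log2 fold change of -0.41, which lay between no change and the 1.5-fold limit that the study's methods set. It therefore did not pass. CD72 lies on chromosome 9 from 35609979 to 35646807 on the minus strand, and its annotated end overlaps TESK1 on the other strand (460 and 416 reads). Reads of the 7 receptors summed to 2304 in Ramos and 861 in Ramos640. LILRB1 made up 33.9% of these in Ramos (exact binomial interval 32.0% to 35.9%) and 0.116% in Ramos640 (0.0029% to 0.645%), and CD72 made up 63.2% and 97.9%. The receptor reads of Ramos640 were thus almost wholly those of CD72.

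**Figure D1:**
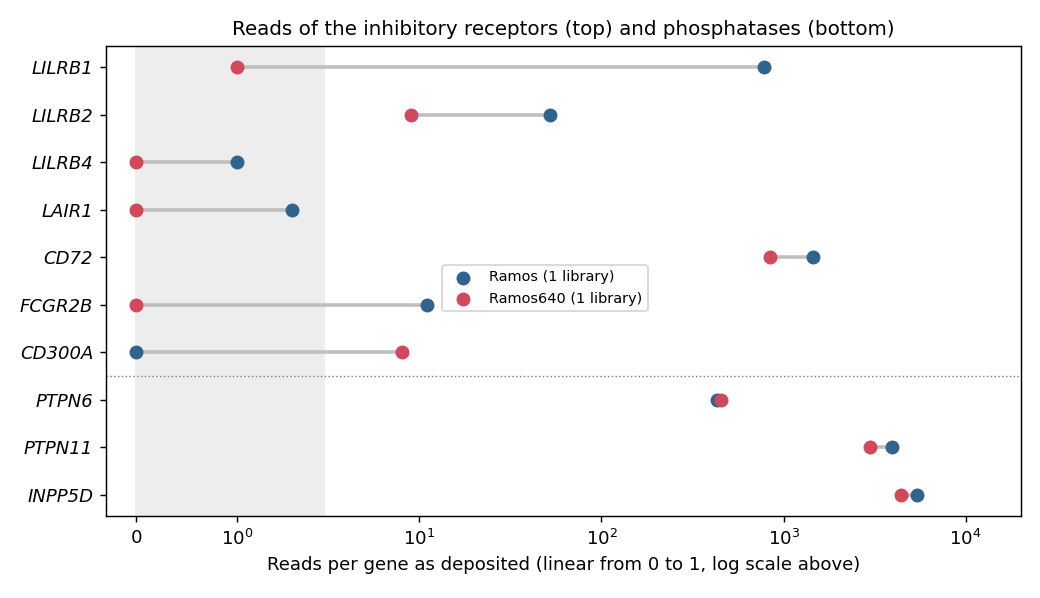
Deposited reads of the 7 receptors (above the dotted line) and 3 phosphatases (below it) in the Ramos and Ramos640 libraries, 1 point per library joined by a line, on an axis that is linear from 0 to 1 and logarithmic above. The shaded band covers 0 to 3 reads; LILRB1 goes from 782 reads in Ramos to 1 in Ramos640, while the points of PTPN6, PTPN11 and INPP5D lie close together in both libraries.

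The phosphatases showed no difference of that size. INPP5D had 5414 reads in Ramos and 4433 in Ramos640, or 20.6 and 20.8 RPKM, and its log2 fold change was 0.093 (interval 0.035 to 0.15). PTPN11, which is best known as a positive regulator of Ras signaling, had 3945 and 2996 reads, with a log2 fold change of -0.016 (interval -0.085 to 0.053). Its annotated span overlaps RPL6 on the other strand (27754 and 28429 reads), so reads of this abundant ribosomal protein gene could have entered it if strand was not used. PTPN6, the phosphatase that CD72 and CD22 recruit, had 432 reads in Ramos and 454 in Ramos640. Its log2 fold change of 0.45 (interval 0.26 to 0.65) was 1.37-fold in Ramos640 and stayed under the 1.5-fold limit, with part of the interval beyond it. The log2 fold changes moved with the GC content of genes. Among 10277 coding genes of 100 reads or more, their median was -0.34 in the tenth of genes poorest in GC and 0.19 in the tenth richest in GC. With this trend removed the values were 0.26 for PTPN6, 0.20 for PTPN11, -0.064 for INPP5D and -0.54 for CD72, so that PTPN11 and INPP5D changed sign while all 4 stayed within 1.5-fold. Of the reads of the 3 phosphatase genes, PTPN6 held 4.41% in Ramos (4.01% to 4.84%) and 5.76% in Ramos640 (5.26% to 6.30%), before any correction for GC content. INPP5D lies on chromosome 2 from 233924677 to 234116549, and PTPN6 (7055631 to 7070479) and PTPN11 (112856155 to 112947722) on chromosome 12, all on the plus strand.
In Ramos the order per length was INPP5D, CD72, PTPN11, LILRB1, PTPN6 and LILRB2, and the counting intervals of neighbours in this order were separate. In Ramos640 the order was INPP5D, CD72, PTPN11, PTPN6 and, far below, CD300A (0.096 RPKM) and LILRB2 (0.076 RPKM), whose intervals overlapped. LILRB1 thus moved from between PTPN11 and PTPN6 to below all members with more than 1 read. These intervals cover counting error only, and the lengths are those of all annotated exons of a gene, so a gene with many unused exons has its level understated.

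Of the 7 members that reached 10 reads, 3 (LILRB1, LILRB2 and FCGR2B) were lower by more than 1.5-fold in the Ramos640 library and 0 were higher. Over the 18778 genes that reached 10 reads, 17.3% were lower and 14.6% higher by this limit. With the whole counting interval required to lie beyond 1.5-fold, the same 3 members were lower, against 7.35% of all genes lower and 5.79% higher. The members were selected on this contrast, so nothing is read from the difference between these shares. LILRB1, LILRB2 and FCGR2B reached 10 reads only through their Ramos reads, while CD300A (0 and 8 reads) fell short. The split into lower and higher thus depends on the minimum. With at least 1 read, 5 members were lower and 1 was higher. The median log2 fold change of the 7 members was -0.41, which is the value of CD72, and the median of all genes with 10 reads was -0.015 (quartiles -0.40 and 0.34). With FCGR2B set to its bound the median did not move.

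**Figure D2:**
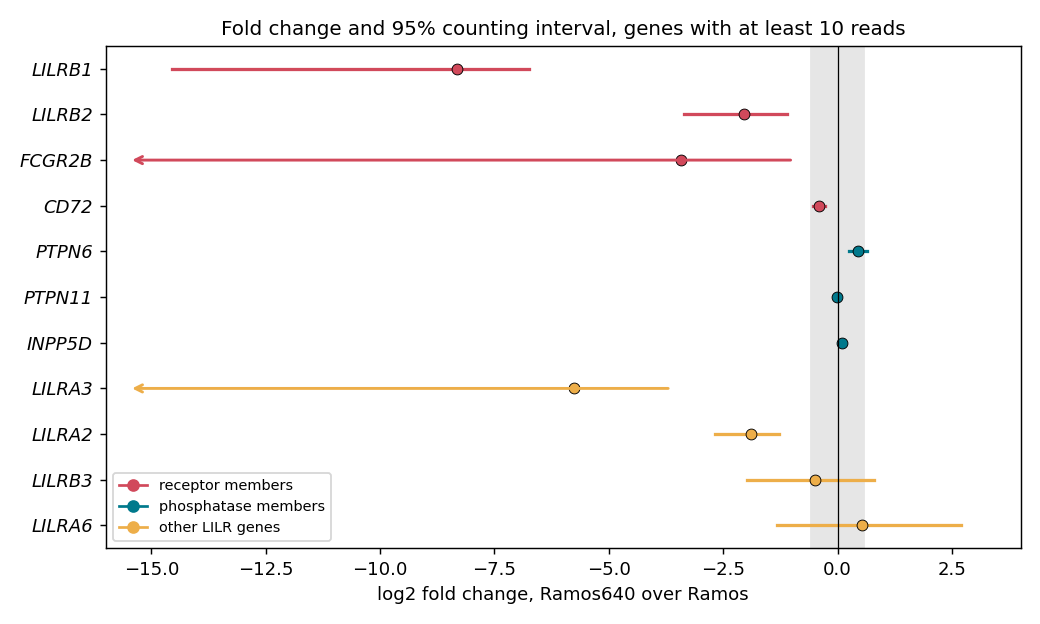
Log2 fold change of Ramos640 over Ramos (points, after adding 1 to each normalized count) for 7 members and 4 other LILR genes with at least 10 reads, with the 95% counting interval of the ratio as a line. Arrows mark genes with 0 reads in Ramos640, whose interval has no lower end and whose point depends on the added count; the shaded band is 1.5-fold in either direction, and it holds the points of CD72, PTPN6, PTPN11, INPP5D, LILRB3 and LILRA6.

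The other genes of the LILR and LAIR families were next examined for the pattern of LILRB1. Of 11 such genes, 6 had no reads at all and 4 had at least 10. LILRA2, an activating receptor without ITIMs, had 110 reads in Ramos and 22 in Ramos640, which was 3.84-fold lower (interval 2.41-fold to 6.38-fold). LILRA3, which encodes a secreted family member, had 61 and 0 reads, at least 15.6-fold lower against the floor of 3 reads (counting interval from 12.3-fold). LILRB3 (15 and 8 reads, log2 fold change -0.48, interval -1.97 to 0.80) and LILRA6 (5 and 6 reads, 0.54, interval -1.33 to 2.70) were not called. LILRB3 and LILRA6 have near-identical sequences and overlap in the annotation used, so their counts are uncertain. LILRA1, for which the closest window, shown above, matched that chosen for LILRB1, had 6 reads in Ramos and 0 in Ramos640.
Over both families, LILRB1 held 782 of 1034 reads in Ramos, or 75.6% (interval 72.9% to 78.2%). In Ramos640 it held 1 of 46, or 2.17% (0.055% to 11.5%), and LILRA2 led there with 22 reads (47.8%, 32.9% to 63.1%). LILRB1 was chosen on these reads, so its shares are a description. LILR genes are expressed by myeloid cells, and markers of those cells were low in both libraries. The 10 monocyte and macrophage markers summed to 1.53 CPM (counts scaled to the library total) in Ramos and 1.30 in Ramos640, with ITGAM and MPO at 0 reads in each and LYZ at 0 and 1. Of these 10, 4 had at least 10 reads, 2 of them lower and 2 higher in Ramos640. Those lower were VCAN (28 and 6 reads) and S100A8 (13 and 4), and those higher were CD68 (10 and 15) and CSF1R (3 and 9).

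To see whether genes beside LILRB1 had the same pattern, all genes with a start within 1 Mb of the LILRB1 start were taken from GENCODE v44lift37 on GRCh37. The nearest protein-coding genes that reached 100 reads were LENG8, LENG9 and LILRA2 on the side of lower coordinates and NLRP7, RDH13 and EPS8L1 on the other. LENG8 (2271 and 1700 reads, log2 fold change -0.037) and LENG9 (214 and 133, -0.30) were not called. NLRP7, a gene of the NOD-like receptor family, had 3394 and 861 reads (-1.60, interval -1.71 to -1.49) and was lower, RDH13 was not called (0.24), and EPS8L1 was lower (-0.76). LILRB4 lies just beyond LILRB1 and had NLRP7, RDH13 and EPS8L1 as its neighbours as well, with LILRB1, LILRA2 and LENG9 on the other side. Apart from LILRB1, the LILR genes with at least 10 reads in this window were LILRB2 and LILRA2, which were lower, and LILRB3 and LILRA6, which were not called. For the 38 genes outside the family the median was 0.17, with values from -2.97 to 1.71. Of these 38, 8 were lower and 6 higher, where over all genes 17.3% were lower and 14.6% higher. The lowest of the 38 was TNNT1, with 18 and 1 reads. LILRA3 had no position in the annotation used and is not in these counts.
The 6 neighbours of CD72 were taken by the same rule. STOML2 (0.43), FAM214B (-0.19), TESK1 (0.24), SIT1 (-0.29) and C9orf100 (-0.49) were not called, and CCDC107 (0.71) was higher in Ramos640. For the other 7 members, at most 3 of the 6 neighbours were called.

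**Figure D3:**
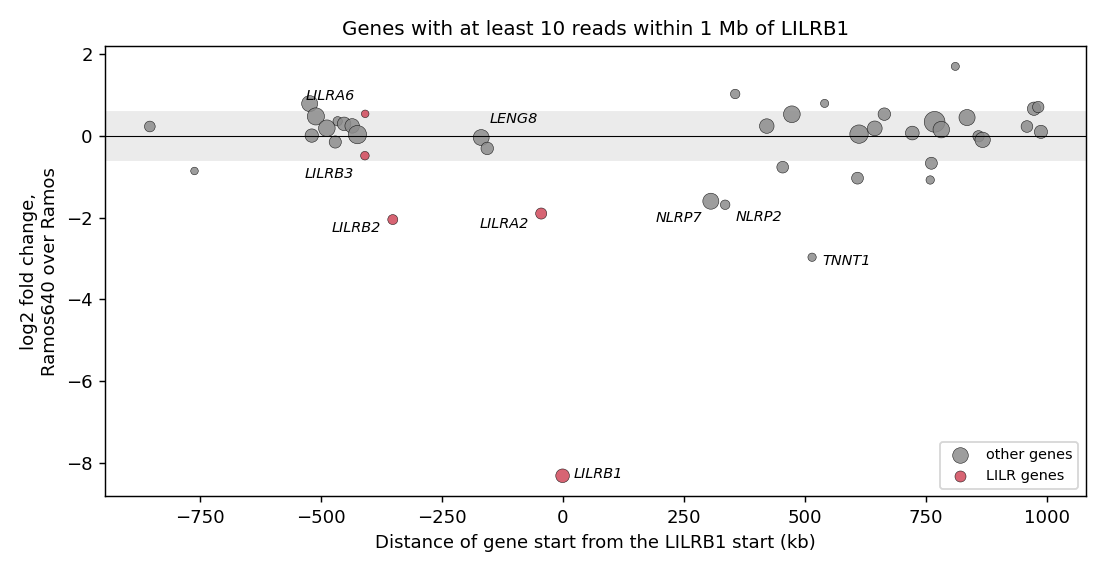
Log2 fold change of Ramos640 over Ramos against the distance of each gene's start from that of LILRB1 in kilobases, for genes with at least 10 reads within 1 Mb; larger points have more reads. The 5 LILR genes are red, other genes grey, and the shaded band is 1.5-fold in either direction: LILRB1 lies at -8.32, LILRB2 and LILRA2 near -2, and LENG8 at -0.037 between them.

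The rest of the pathway was described from lists of related genes. The list of other inhibitory receptors and their relatives had 37 genes, of which 16 had at least 10 reads, and 7 were lower, 3 higher and 6 not called in Ramos640. With the GC trend removed 4 were lower. Over all genes 17.3% were lower and 14.6% higher without that correction, the background for the 1.5-fold counts of this list and those that follow. The 5 called genes with the most reads were all lower. CLEC2D, a lectin that engages an inhibitory receptor on NK cells, had 5875 and 2960 reads (log2 fold change -0.61), and FCRL1, an activating coreceptor of B cells, had 2008 and 951 (-0.70). SIGLEC10, a sialic acid receptor with ITIMs, had 1030 and 455 reads (-0.80, interval -0.96 to -0.64). FCRLB, which lies beside FCGR2B on chromosome 1, had 249 and 92 reads (-1.05) and FCRL2, an Fc receptor-like protein with ITIMs, had 169 and 49 (-1.39). The products of CLEC2D, FCRL1, FCRLA, FCRLB and SIRPG carry no ITIM. The remaining called genes, named after their values were seen, had few reads, with PECAM1 (15 and 4) and FCRL3 (13 and 5) lower and CD33 (3 and 14), CEACAM1 (13 and 16) and CLEC4A (4 and 6) higher. With the whole interval required beyond 1.5-fold, 4 were lower and 1 was higher. By that rule 7.35% of all genes were lower and 5.79% higher, the background for the whole-interval calls that follow as well. CD22, the best known ITIM receptor of B cells and named here for its abundance, had 38776 and 22738 reads (-0.39, interval -0.41 to -0.37), more than every member, and stayed within 1.5-fold. The CD300 family apart from CD300A had at most 2 reads per gene and library, with CD300C at 2 and 2, CD300LG at 1 and 0 and CD300LF at 0 and 1. Among the 7 other Fc gamma receptor genes, 6 had no reads and FCGRT had 2 in each library.

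The kinases that phosphorylate ITIMs and their regulators had 10 of 11 genes with at least 10 reads, and 2 were lower and 1 higher. PAG1, an adaptor that anchors the kinase CSK, was lower (3452 and 1432 reads, log2 fold change -0.89), as was CBL, a ubiquitin ligase (2210 and 1077, -0.66). LYN, the kinase best known for phosphorylating the ITIMs of B cells, had 9716 and 5018 reads, with a log2 fold change of -0.57 (interval -0.62 to -0.52), just inside the 1.5-fold limit, and it is named after its values were seen. Of 13 adaptors and docking proteins with at least 10 reads, 2 were lower, 2 were higher and 9 were not called. CBLB (251 and 105 reads, -0.87) and GAB2 (79 and 37, -0.70) were lower, and SLA2 (135 and 222, 1.09) and GAB3 (48 and 61, 0.71) were higher. Of these kinase and adaptor genes, the whole interval lay beyond 1.5-fold only for PAG1 and SLA2.
The phosphatases beyond the members were examined in the same way. Of 13 other inositol lipid phosphatases with at least 10 reads, 2 were lower and 1 was higher. SYNJ2, named after its values were seen, was lower (40 and 7 reads), and OCRL was higher (99 and 128, 0.75). Of 15 other protein tyrosine phosphatases with at least 10 reads, 4 were lower, 0 were higher and 11 were not called. PTPRC, which encodes CD45 and activates Src family kinases, had 8585 and 3367 reads (-0.97, interval -1.03 to -0.91). PTPRJ, another receptor phosphatase of that role, had 66 and 12 reads and was 4.22-fold lower, and PTPN4 (-0.65) and PTPN12 (-0.64) were lower as well. The whole interval lay beyond 1.5-fold for SYNJ2, PTPRC and PTPRJ.

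The ligands of the receptors had 14 of 21 genes with at least 10 reads, and they went both ways, with 5 higher, 5 lower and 4 not called. HLA-B was higher, with 23791 and 40013 reads (log2 fold change 1.13), and HLA-C had 7340 and 12401 (1.14). HLA-F was higher as well (283 and 535 reads, 1.30). These genes encode MHC class I chains, the ligands of LILRB1 and LILRB2, and because they are highly alike, reads could have been split among them. B2M, the chain they share, had 31367 and 26214 reads and a log2 fold change of 0.12, which was not called. SEMA4D, the ligand of CD72, was higher (676 and 932 reads, 0.84, interval 0.70 to 0.99). COL1A1, a collagen chain of the kind LAIR1 binds, was lower (651 and 192 reads, -1.38). The other called ligand genes, named after their values were seen, were HLA-G, which was higher, and COL1A2, COL3A1, COL4A2 and CD1D, which were lower.

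**Figure D4:**
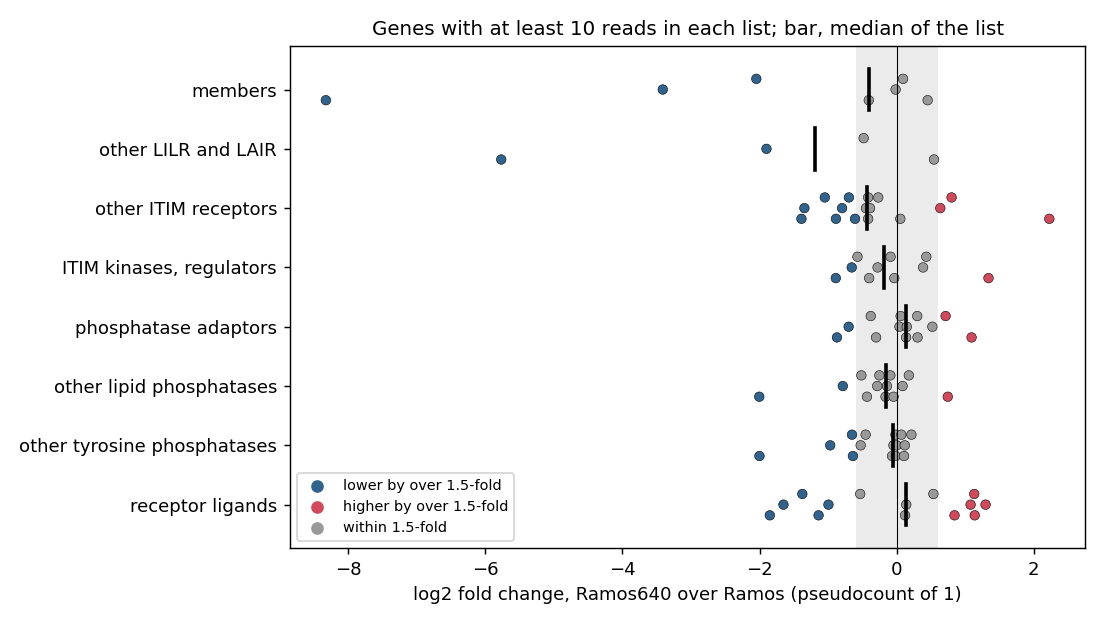
Log2 fold change of Ramos640 over Ramos for every gene with at least 10 reads in each list, 1 point per gene, with the list's median as a black bar and the 1.5-fold band shaded. Blue points are lower and red points higher by more than 1.5-fold. The other LILR and LAIR genes have a median of -1.19 (the same with LILRA3 at its bound). The other ITIM receptors, listed with relatives that lack an ITIM, have a median of -0.43 and the ligands of 0.13.

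The cell type of the libraries was checked by markers. All 8 B-cell markers had reads in both libraries, and of them PAX5 and VPREB3 were lower and CD79B and CD74 higher in Ramos640. The 7 markers of NK and T cells summed to 0.394 CPM in Ramos and 1.43 in Ramos640, the latter mostly from CD3E (1 and 31 reads) and NCAM1 (0 and 10), with CD3D, CD2 and GNLY at 0 in both. The 5 plasma cell markers (2330 and 2982 CPM) and the 5 of plasmacytoid dendritic cells (68.6 and 12.3 CPM, nearly all TCF4, with 2599 and 367 reads) are also expressed by germinal centre B cells in part. Of the 4 plasma cell markers with at least 10 reads, PRDM1 (16 and 31) and XBP1 (18028 and 22624) were higher in Ramos640 and 0 were lower. Of the 2 such dendritic cell markers, TCF4 was lower and IL3RA (9 and 12) higher.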

How the data were processed

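RNA-seq counts of Ramos and Ramos640 cells were analysed, each as 1 library of RNA pooled over 3 passages. For these the authors removed adaptors from Ion reads, aligned them to GRCh37 with MapSplice and deposited whole-number read counts per gene, not normalized. The counting program, annotation, strand setting and handling of reads that fit several genes are not given in the sources used here. Size factors by the median of ratios were used for scaling (1.14 and 0.876). Log2 fold changes used a pseudocount of 1, and 95% intervals without pseudocount were derived from the share of a gene's reads in Ramos640 (Clopper-Pearson, exact). They cover counting error only. RPKM intervals are exact Poisson. A gene with at least 10 reads over both libraries was called when it passed 1.5-fold. With 1 library per line no dispersion can be estimated, and no test was run. Other scalings, pseudocounts, minimum counts, folds and a GC correction were tried. Positions, exon lengths and GC content came from GENCODE v44lift37 (28895 of 37122 rows matched by symbol, 84.4% of tested genes), and 28 rows bear spreadsheet numbers. TMM factors came from edgeR 4.0.16, and windows were aligned with Biopython 1.88. The scaling, the interval and the fold call were tested on counts simulated with counting error only. Variation between cultures was not simulated, and the other steps were not tested in this way.

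Named were all members, up to 5 called genes with at least 50 reads per related list (otherwise the 3 with the most reads), 3 neighbours per side with at least 100 reads, and the 5 genes nearest to LILRB1. The members and lists were chosen with earlier results of these data known. Some genes of the related lists enter the counts and are not reported here by name.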

Additional observations from a re-analysis of the deposited data

How the results depend on the processing

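The alternatives run numbered 9. The 3 members called lower (LILRB1, LILRB2 and FCGR2B) were 3 under both other scalings, pseudocounts of 0.1 and 10, removal of the GC trend, a fold of 2 and the whole-interval rule. A minimum of 1 read gave 5 lower and 1 higher, which adds LILRB4, LAIR1 and CD300A, and a minimum of 100 reads left 1 lower, since fewer genes are then counted. The log2 fold change of LILRB1 was -5.96 with a pseudocount of 10, which draws a count of 1 towards the larger one, and -8.33 to -9.11 under the other alternatives. The median of the members was -0.54 with the GC trend removed, -0.66 with at least 1 read and -0.016 with at least 100 reads. The share of all genes called was 7.35% lower and 5.79% higher by the whole-interval rule, against 17.3% and 14.6%. TMM factors and total counts moved the median of all genes by -0.0097 and -0.080. Of 45 values of other members under alternatives, 39 stayed inside their counting interval, 6 did not and 0 reversed a call. Of 162 counts over related lists, 29 moved by more than 1.5 times. Among them the other ITIM receptors and their relatives had 7 lower genes. These were 4 with the GC trend removed or by the whole-interval rule and 3 at a fold of 2. Their 3 higher genes were 1 with a pseudocount of 10, 0 with at least 100 reads and 7 with at least 1 read. The other tyrosine phosphatases had 4 lower genes, 2 by the whole-interval rule, 1 at a fold of 2 and 7 with at least 1 read. The cause was not tested. Depth limits LILRB4, LAIR1, CD300A and FCGR2B, with 11 reads or fewer in all. No paired analysis was possible because each line has 1 library.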
